A study of Drosophila melanogaster with 7 samples.

Results

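Growing axons read their surroundings through receptors on the growth cone, and the balance of attraction, repulsion and adhesion decides where they turn and stop. The genes described here encode these receptors, their ligands and the adhesion molecules that bundle axons or hold them to muscle, with a T-box transcription factor (*mid*) and a calcium-binding protein (*CBP*) beside them. They were chosen by name from a list of 40 genes. A cDNA clone on the array was taken for a gene when the platform annotation gave it that gene alone, and clones marked as retrotransposons in the study's supplementary list were to be dropped (0 were marked). This gave 25 features for 22 genes, out of 10376 features with a value. Another 4 features that name a member together with a second gene were left out. Of the 18 remaining genes, *Fas3* and *mfas* were represented by 1 clone each that is named only in the study's list for the *lola* null, and these clones are given apart from the counts. The other 16, which include *sli*, the *robo* genes, the Netrins, the Plexins and *Fas2*, were not analysed here.

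Netrins attract or repel axons through Frazzled and Unc-5, Slit repels them through the Roundabout receptors, and Commissureless keeps Roundabout away from the surface of axons that cross the midline. Wnt5 acts through the Derailed family, and semaphorins act through Plexins. Motor axons of the fly embryo leave their bundles and choose muscles with the help of cell adhesion molecules, receptor tyrosine phosphatases and the Beaten path proteins. *lola* encodes a family of BTB transcription factors needed for several of these decisions, and the arrays ask which transcripts differ when 1 of its isoforms, isoform K, is inactivated.

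The 7 arrays were two-colour spotted cDNA arrays. Each was hybridized with RNA of *lolaORC4* embryos and RNA of control embryos, both aged 10 to 12 hours. Mutants were w1118 and homozygous for lolaORC4, with sca-GAL4 on one copy of the chromosome and UAS-tau-eGFP on the other, and controls were w1118 with sca-GAL4/UAS-tau-eGFP and no lolaORC4. Both genotypes thus carried the driver and the GFP reporter and were sorted by hand for GFP in the nervous system. Each RNA sample pooled about 300 whole embryos, and the 2 samples of an array were collected together. Both mutant chromosomes carry the same *lola* allele, so that other variants linked to it cannot be told apart from *lolaORC4*. In whole embryos, fewer cells of a type and less RNA per cell cannot be told apart either. The deposited values are log2 ratios without levels, so the tissue could not be checked by the abundance of its markers.

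The direction of the deposited ratios is not stated. No pair of arrays had a negative correlation across features (r from 0.06 to 0.72), so the ratios were read as running the same way on all 7 arrays. As deposited they ran against the study's list for the *lola* null on each of the 7 arrays, and they were therefore multiplied by -1. This null-aligned sign was not taken as mutant over control. If the deposited values were mutant over control, every sign below would reverse, so positive and negative are not read as higher and lower in the mutant. The labels place the mutant in Cy5 on 4 arrays (replicates 2, 3, 5 and 7) and in Cy3 on 3 (replicates 1, 4 and 6), while the methods count the dyes the other way round. The label's dyes are used here. The arrays of the dye orientations were also hybridized with different sample pairs, so dye and sample pair cannot be told apart.

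Of the 25 guidance and adhesion features, 2 changed in the *limma* fit (adjusted p under 0.05, with the adjustment made over all features), both of them positive: the clones of *caps* and *CBP*. This is 8.0% of the features, beside 7.64% of all features called at that threshold. In the positive direction alone the share over all features was 3.18%, and in the negative direction 4.46%. At an unadjusted p under 0.05 there were 8 of 25, beside 21.9% of all features. The 2 called clones are both in the study's list for the null, which holds 5 of the 25 features. These are clones of *fra*, *Dscam1*, *caps* and *CBP*, which the study named as axon patterning genes from that list. The overlap is therefore partly set by the choice of members and is not read as a result. The sign was set from that list, so the positive signs of its members are not independent evidence. Of the 20 features outside that list none was called (4 at an unadjusted p under 0.05 by *limma*). The means of the 25 features lay between -0.18 and 0.37 with a median of 0.07, beside a median of 0.0067 over all features, and 20 of them were positive (80.0%, beside 53.5% of all features). This excess was not seen on every array. On replicates 1, 4 and 6, with the mutant in Cy3, 10, 9 and 9 of the 25 were positive. On replicates 2, 3, 5 and 7, with it in Cy5, there were 21, 22, 21 and 13.

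**Figure D1:**
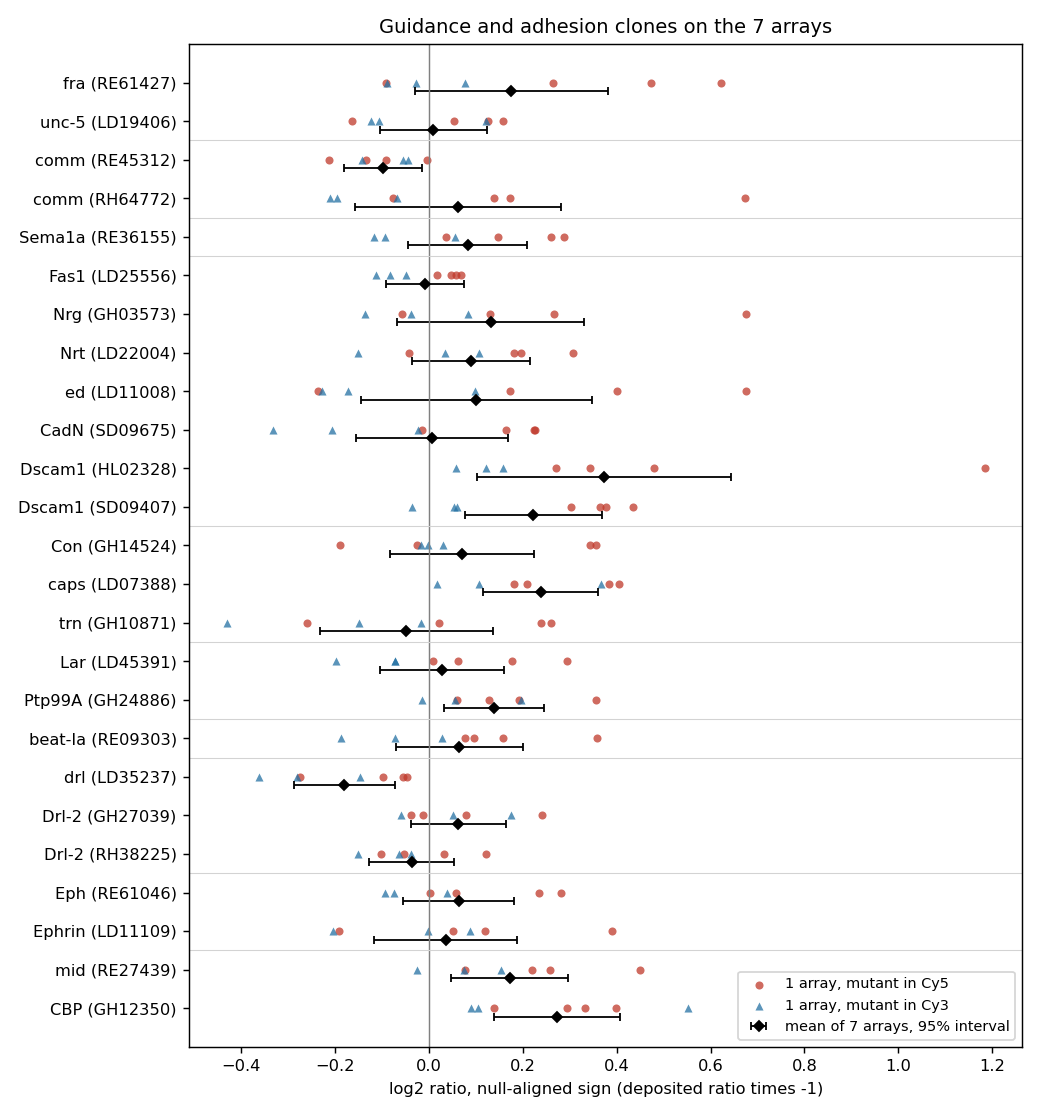
Log2 ratio (x axis, null-aligned sign) of each of the 25 guidance and adhesion clones on each array. Circles are the 4 arrays with the mutant in Cy5, triangles the other 3 arrays, where it was in Cy3, and diamonds the mean of 7 arrays with its 95% interval from limma. Genes of 1 role are set between grey lines. The *caps*, *CBP* and *Dscam1* HL02328 clones lie right of 0 on all 7 arrays and the *drl* and *comm* RE45312 clones left of it.

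Among the genes of leucine-rich repeat proteins, which mark subsets of muscles and motor axons, *caps* (capricious) changed and its relatives did not pass. The *caps* clone LD07388 had log2 ratios of 0.40, 0.38, 0.18 and 0.21 on replicates 2, 3, 5 and 7, with the mutant in Cy5, and 0.37, 0.11 and 0.017 on replicates 1, 4 and 6, with the mutant in Cy3. All 7 were positive, and the orientations overlapped. The mean was 0.24 ± 0.15 (SD, n = 7; 95% interval 0.12 to 0.36), a 1.18-fold ratio, with an adjusted p of 0.029 (*limma*). The call did not hold when replicate 1, 2, 3, 5 or 7 was left out (means 0.21 to 0.27 over the 7 fits, adjusted p up to 0.089).

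*trn* (tartan) encodes the closest relative of Capricious and lies near it on the same arm, with 10 annotated genes between them, 2 of them protein-coding (Release 6). Its clone GH10871 was at 0.26, 0.24, 0.02 and -0.26 on replicates 2, 3, 5 and 7 and at -0.15, -0.43 and -0.018 on replicates 1, 4 and 6. The orientations overlapped, and its mean of -0.05 ± 0.25 did not pass (SD, n = 7; 95% interval -0.23 to 0.14). The *caps* clone lay above the *trn* clone on 7 of 7 arrays, by 0.034 to 0.54. *Con*, which encodes the muscle and motor axon protein Connectin, was at 0.34, 0.36, -0.026 and -0.19 on replicates 2, 3, 5 and 7 and at -0.017, -0.0011 and 0.03 on replicates 1, 4 and 6. It was high on replicates 2 and 3 alone, with a mean of 0.07 ± 0.20 (SD, n = 7) that did not pass.

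*CBP*, listed by the study as a sarcoplasmic calcium-binding protein and grouped by it with axon patterning genes, had the lowest adjusted p of the 25 features. Clone GH12350 was at 0.29, 0.14, 0.33 and 0.40 on replicates 2, 3, 5 and 7 and at 0.55, 0.09 and 0.10 on replicates 1, 4 and 6. Replicate 1 was highest and every array was positive. The mean was 0.27 ± 0.17 (SD, n = 7; 95% interval 0.14 to 0.41), a 1.21-fold ratio, with an adjusted p of 0.025 (*limma*). Without replicate 5 or without replicate 7 it did not pass (0.26 and 0.25, adjusted p of 0.074 and 0.079). *mid*, a T-box transcription factor gene and like *CBP* not a receptor, ligand or adhesion gene, ranged from -0.025 to 0.45 with a median of 0.15. Of its 7 values 6 were positive, and the mean of 0.17 ± 0.16 did not pass (SD, n = 7; adjusted p = 0.10 by *limma*).

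**Figure D2:**
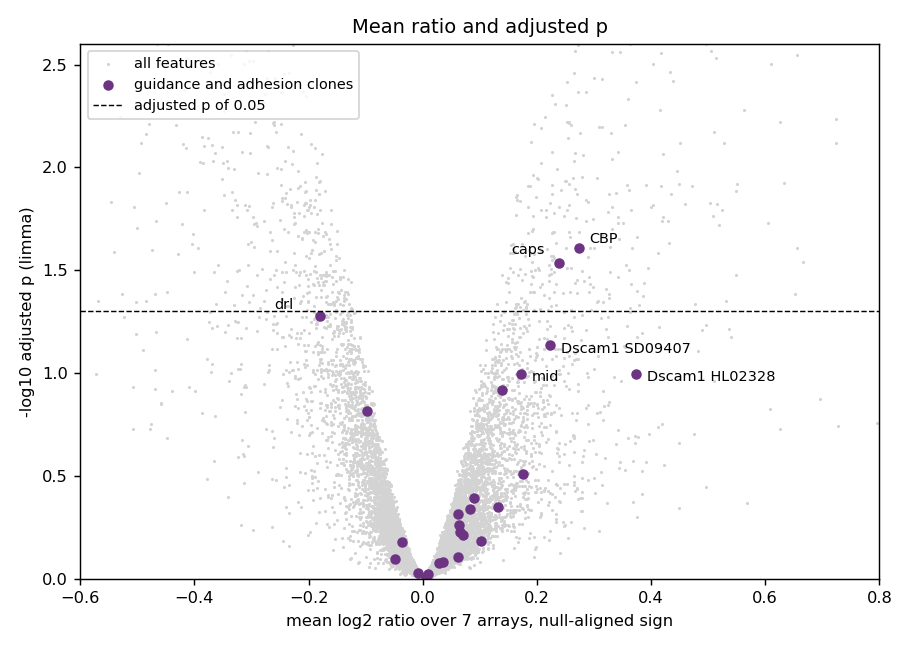
Mean log2 ratio over 7 arrays (x axis, null-aligned sign) and -log10 adjusted p from limma (y axis) for all features in grey and the 25 guidance and adhesion clones in purple, with 218 grey features lying outside the axes. Only *caps* and *CBP* of the 25 lie above the dashed line at an adjusted p of 0.05, and *drl* lies just below it with a negative mean.

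*Dscam1* encodes an immunoglobulin superfamily receptor with very many splice forms, by which the branches of a neuron recognise each other. Its clone HL02328 had the largest mean of the 25 features, and neither of its clones passed. Clone HL02328 was at 1.18, 0.34, 0.48 and 0.27 on replicates 2, 3, 5 and 7 and at 0.12, 0.06 and 0.16 on replicates 1, 4 and 6. Clone SD09407 was at 0.43, 0.37, 0.38 and 0.30 on replicates 2, 3, 5 and 7 and at 0.054, -0.035 and 0.06 on the other 3. For both clones all arrays with the mutant in Cy5 lay above all arrays with it in Cy3. HL02328 had a mean of 0.37 ± 0.39 (SD, n = 7; 95% interval 0.10 to 0.64; adjusted p = 0.10 by *limma*), and SD09407 had 0.22 ± 0.19 (SD, n = 7; 95% interval 0.08 to 0.37; adjusted p = 0.073 by *limma*). The single high value of HL02328, on replicate 2, widened its spread: without that array the mean was 0.24 and passed (adjusted p = 0.045 by *limma*). Without any other single array it did not pass (adjusted p up to 0.21 by *limma*).

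SD09407 was the 1 feature of the 25 whose ratio differed between the dye orientations at an adjusted p under 0.05. It averaged 0.37 ± 0.05 with the mutant in Cy5 (SD, n = 4 arrays) and 0.03 ± 0.05 with the mutant in Cy3 (SD, n = 3 arrays), a difference of 0.34 (standard error 0.06, adjusted p = 0.0099 by *limma*). Without replicate 4, 0 of the 25 features had a difference that passed, and without replicate 7 there were 3. Over all features 10.6% had such a difference in either direction, and 2.33% had one with the ratio higher on the Cy5 arrays. With a dye coefficient in the model the overall mean of SD09407 was 0.20 and passed (adjusted p = 0.0056 by *limma*). The clones differed most on replicate 2, by 0.75, and by a median of 0.09. With both clones averaged the gene was at 0.30 (standard error 0.09, adjusted p = 0.075 by *limma*). The exons held by either clone are not known here.

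*drl* (derailed), a Wnt5 receptor of the Ryk family that steers axons into the anterior commissure, was the member nearest the threshold on the negative side. Its clone LD35237 was at -0.05, -0.05, -0.10 and -0.27 on replicates 2, 3, 5 and 7 and at -0.28, -0.36 and -0.15 on replicates 1, 4 and 6. Every array was negative, and the orientations overlapped. The mean was -0.18 ± 0.12 (SD, n = 7; 95% interval -0.29 to -0.07; adjusted p = 0.053 by *limma*). It passed without replicate 2 (-0.20, adjusted p = 0.047 by *limma*) and with a dye coefficient (-0.19, adjusted p = 0.023 by *limma*). With array weights it also passed (adjusted p = 0.046 by *limma*). It did not pass without any other single array (adjusted p up to 0.14 by *limma*). Nor did it pass with median centring or quantile normalization (adjusted p = 0.065 and 0.0615 by *limma*).

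*Drl-2*, of the same receptor family, was represented by 2 clones with no common course. GH27039 ranged from -0.06 to 0.24 with a median of 0.05, and RH38225 ranged from -0.15 to 0.12 with a median of -0.05. Their signs were the same on 1 of 7 arrays, and with both averaged the gene was at 0.01 (standard error 0.03). On every array the *drl* clone lay below GH27039 (differences of -0.46 to -0.06), and it lay below RH38225 on 5 of 7 arrays.

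**Figure D3:**
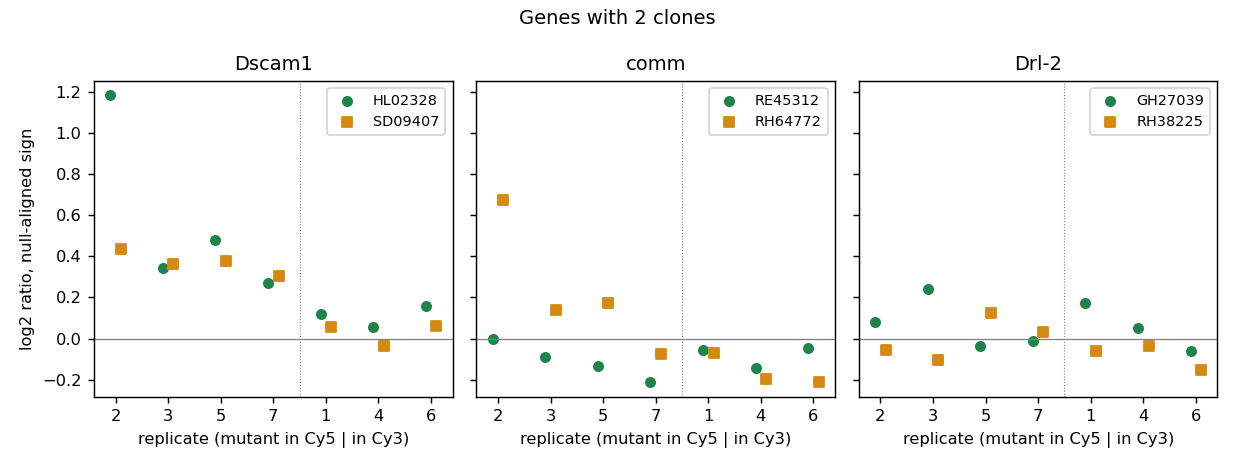
Log2 ratio (y axis, null-aligned sign) of both clones of *Dscam1*, *comm* and *Drl-2* on each replicate (x axis), with the 4 arrays with the mutant in Cy5 left of the dotted line and the 3 with it in Cy3 right of it. The *Dscam1* clones are both above 0.26 on the 4 left arrays and below 0.17 on the 3 right ones, while the clones of *comm* part on replicate 2, by 0.68.

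The receptors of the midline guidance systems gave no call. *fra* (frazzled), the attractive Netrin receptor, is in the study's list for the null, and its clone RE61427 was at 0.62, 0.26, 0.47 and -0.09 on replicates 2, 3, 5 and 7 and at -0.027, 0.08 and -0.09 on replicates 1, 4 and 6. Replicates 2, 3 and 5 stood above the others, and replicate 7, of the same dye orientation, was level with replicate 6 at the bottom. The mean of 0.18 ± 0.29 did not pass (SD, n = 7; 95% interval -0.03 to 0.38; adjusted p = 0.31 by *limma*), and it was 0.10 without replicate 2. *unc-5*, the repulsive Netrin receptor, ranged from -0.16 to 0.16 with a median of 0.05. Its mean was 0.0091 ± 0.14 (SD, n = 7), and its 95% interval of -0.11 to 0.12 corresponds to ratios of 0.93 to 1.09.

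*comm* (commissureless) had 2 clones on either side of 0. RE45312 was negative on all 7 arrays, from -0.21 to -0.0033 with a median of -0.09, and its mean of -0.10 ± 0.07 did not pass (SD, n = 7; 95% interval -0.18 to -0.016; adjusted p = 0.15 by *limma*). RH64772 was at 0.67, 0.14, 0.17 and -0.08 on replicates 2, 3, 5 and 7 and at -0.07, -0.20 and -0.21 on replicates 1, 4 and 6. Replicate 2 stood above the others, and the mean of 0.06 ± 0.31 (SD, n = 7) was -0.04 without it. The clones had the same sign on 4 of 7 arrays. *Sema1a*, a transmembrane semaphorin that acts as a ligand and as a receptor, ranged from -0.12 to 0.29 with a median of 0.06 and a mean of 0.08 ± 0.16 (SD, n = 7). The receptor tyrosine kinase gene *Eph* and its ligand gene *Ephrin* had means of 0.06 ± 0.14 and 0.04 ± 0.20 (SD, n = 7 each), and neither passed.

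Of the other adhesion genes, none passed. *Nrg*, the fly L1-type immunoglobulin protein Neuroglian, ranged from -0.14 to 0.68 with a median of 0.08, and had a mean of 0.13 ± 0.27 (SD, n = 7). *ed*, the immunoglobulin protein Echinoid of adherens junctions, was at 0.68, 0.17, 0.40 and -0.24 on replicates 2, 3, 5 and 7 and at -0.17, -0.23 and 0.10 on replicates 1, 4 and 6, with a mean of 0.10 ± 0.35 (SD, n = 7). Both were highest on replicate 2, and without it the means were 0.04 for *Nrg* and 0.0056 for *ed*. *Nrt*, the transmembrane protein Neurotactin, had 0.09 ± 0.16 (SD, n = 7). *Fas1*, a fasciclin-domain adhesion gene, was the tightest of this group. It stayed within -0.11 and 0.07 with a mean of -0.0077 ± 0.07 (SD, n = 7), and its 95% interval of -0.09 to 0.08 bounds the ratio between 0.94 and 1.05. *CadN*, the N-cadherin gene, ranged from -0.33 to 0.23 around a mean of 0.0057 ± 0.22 (SD, n = 7). That near-zero mean held opposite values: 0.15 ± 0.11 with the mutant in Cy5 (SD, n = 4 arrays) and -0.19 ± 0.16 with the mutant in Cy3 (SD, n = 3 arrays), a difference of 0.34 that did not pass (standard error 0.09, adjusted p = 0.058 by *limma*).

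The receptor tyrosine phosphatases guide motor axons out of their bundles. *Ptp99A* ranged from -0.014 to 0.36 with a median of 0.13, positive on 6 of 7 arrays, and its mean of 0.14 ± 0.12 did not pass (SD, n = 7; 95% interval 0.03 to 0.25; adjusted p = 0.12 by *limma*). *Lar* ranged from -0.20 to 0.29 with a mean of 0.03 ± 0.17 (SD, n = 7), and *beat-Ia*, which encodes an immunoglobulin protein of motor neurons that loosens axon bundles, ranged from -0.19 to 0.36 with a mean of 0.07 ± 0.17 (SD, n = 7).

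The clones of *Fas3*, a homophilic adhesion gene, and *mfas*, a gene of a fasciclin-domain protein, were read by the same fit. The *Fas3* clone RE66907 was at 0.90, 0.35, 0.45 and 0.19 on replicates 2, 3, 5 and 7 and at 0.06, 0.08 and 0.23 on replicates 1, 4 and 6. All 7 values were positive, the orientations overlapped, and the mean of 0.32 ± 0.29 did not pass (SD, n = 7; 95% interval 0.12 to 0.53; adjusted p = 0.067 by *limma*). Without replicate 2 it passed (0.23, adjusted p = 0.048 by *limma*), and without any other single array it did not (adjusted p up to 0.16 by *limma*). The *mfas* clone GH11519 was at 0.13, -0.10, 0.0016 and -0.14 on replicates 2, 3, 5 and 7 and at -0.08, -0.33 and -0.25 on replicates 1, 4 and 6. It was negative on 5 of 7 arrays, and its mean of -0.11 ± 0.15 did not pass (SD, n = 7).

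The features had a common course over the arrays. Their ratios were higher with the mutant in Cy5 than with it in Cy3 for 24 of the 25 features, the exception being the *comm* clone RE45312, and the median difference was 0.18. Over all features the ratio was higher on the Cy5 arrays for 47.9%, with a median difference of -0.0096. For 6 features, those of *Fas1*, *CadN*, *Lar* and *beat-Ia* and both of *Dscam1*, every Cy5 array lay above every Cy3 array (24.0%, beside 10.2% of all features). The opposite order was found for 0 of the 25, beside 16.2% of all features. Feature by feature, *Dscam1* SD09407 was the only one of the 25 with a difference that passed in the *limma* fit.

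**Figure D4:**
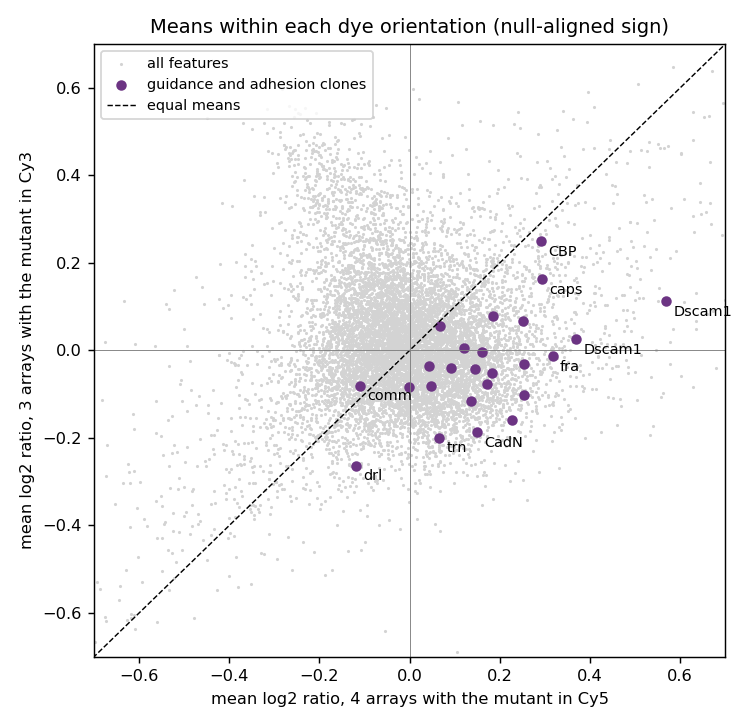
Mean log2 ratio of each feature over the 4 arrays with the mutant in Cy5 (x axis) and over the 3 arrays with the mutant in Cy3 (y axis), null-aligned sign, for all features in grey and the 25 guidance and adhesion clones in purple. All clones but the *comm* clone RE45312 lie below the dashed line of equal means, and *CadN* lies at 0.15 and -0.19.

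By array, the median of the 25 features was 0.28 on replicate 2, 0.18 on replicate 3, 0.16 on replicate 5 and 0.0079 on replicate 7, and -0.04, -0.035 and -0.045 on replicates 1, 4 and 6. The medians of all features lay between -0.018 and 0.01 on the same arrays. By its median, replicate 7 therefore lay nearer to the Cy3 arrays than to the other arrays of its own orientation. This did not hold for every feature: for the 6 features named above, replicate 7 also lay above every Cy3 array. On replicates 2, 3 and 5 there were 21, 22 and 21 positive features of the 25, on replicate 7 there were 13, and on replicates 1, 4 and 6 there were 10, 9 and 9. The highest value fell on replicate 2 for 14 features (56.0%, beside 22.6% of all features) and on replicate 2, 3 or 5 for 23 (92.0%, beside 41.0%). The lowest fell on replicate 4 or 6 for 19 (76.0%, beside 26.4%). These groups of arrays match no label and follow the members' own values. Their excess over all features is thus partly set by that choice and is description only. The SD between arrays was 0.17 at the median of the 25 features, from 0.07 for *comm* RE45312 to 0.39 for *Dscam1* HL02328, beside 0.14 over all features.

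**Figure D5:**
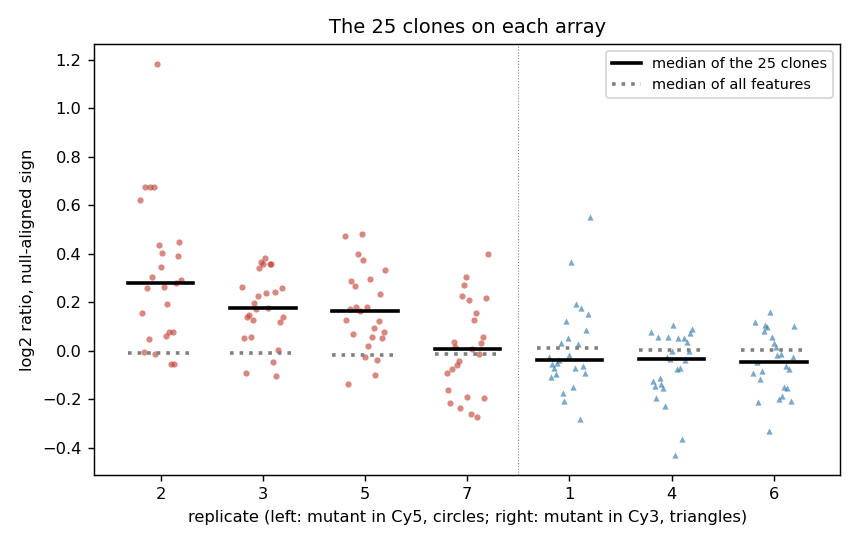
Log2 ratios (y axis, null-aligned sign) of the 25 guidance and adhesion clones on each array (x axis), with the mutant in Cy5 left of the dotted line and in Cy3 right of it. Black bars are medians of the 25 clones and dotted grey bars medians of all features. The clones stand above 0 on replicates 2, 3 and 5, at medians of 0.28, 0.18 and 0.16, and around 0 on the others.

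The other guidance genes came from a list of 61, made of signal transduction genes, with some transcription regulators, and of other surface and matrix genes. They had 39 features for 32 genes. Of these, 1 was called, positive, and 0 were called negative (2.56%, beside the 7.64% of all features; 11 at an unadjusted p under 0.05). It was the clone LD31220 of *Nedd4*, which encodes a HECT-type ubiquitin ligase. Its values ran from 0.05 to 0.23 with a median of 0.16, all 7 positive, and the mean was 0.16 ± 0.06 (SD, n = 7; adjusted p = 0.024 by *limma*), which did not pass without replicate 1, 3, 5 or 7 (0.15 to 0.18 over the 7 fits, adjusted p up to 0.079). The median of the 39 means was 0.06, 28 were positive, and 30 of 39 had a higher ratio on the Cy5 than on the Cy3 arrays (76.9%, beside 47.9% of all features).

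Markers of the cell types in the embryo were read on the same arrays. Of the neuron list 3 of 10 genes were measured, and 2 of the 3 features were called, both negative: *nSyb*, the SNARE of neuronal vesicles, at -0.39 ± 0.19, and *cac*, a voltage-gated calcium channel gene, at -0.23 ± 0.11 (SD, n = 7 each; *limma*). The remaining feature was at -0.03 ± 0.10 (SD, n = 7), positive on 3 of 7 arrays, and was not called. The signs of the 2 called features are opposite to those of *caps* and *CBP*. Of the neuroblast list 1 of 4 features was called, *pros* at 0.23 ± 0.13, and of the glia list 1 of 8, the glutamine synthetase gene *Gs2* at -0.62 ± 0.20 (SD, n = 7 each; *limma*). Both are in the study's null list, and *pros* did not pass without replicate 3 or 5 (adjusted p up to 0.066 by *limma*). None of the 13 muscle features was called (4 at an unadjusted p under 0.05 by *limma*), and none of the 2 midline features (1 at an unadjusted p under 0.05 by *limma*). Over all features 7.64% were called, and 21.9% had an unadjusted p under 0.05 (*limma*). With 2 to 13 features in a list, the marker counts are description only. The muscle list varied most: its median by array was 0.11, -0.24, -0.41 and -0.21 on replicates 2, 3, 5 and 7 and 0.46, -0.07 and -0.26 on replicates 1, 4 and 6. The neuron medians lay between -0.42 and -0.13 on all arrays. The glia median was 0.15, 0.10, 0.11 and 0.03 on replicates 2, 3, 5 and 7 and -0.04, -0.13 and -0.04 on replicates 1, 4 and 6. Not every glia feature followed that median. *Gs2* was negative on all 7 arrays, averaging -0.69 with the mutant in Cy5 and -0.53 with it in Cy3. The neuroblast medians were 0.20, 0.13, 0.19 and 0.11 on replicates 2, 3, 5 and 7 and -0.0059, 0.03 and 0.20 on replicates 1, 4 and 6. The ratio was higher on the Cy5 than on the Cy3 arrays for 7 of 8 glia and 4 of 4 neuroblast features, against 1 of 3 neuron and 2 of 13 muscle features. Over all features it was higher for 47.9%. The part of the makeup of the embryos in the values of the guidance genes was not tested.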

How the data were processed

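RNA of *lolaORC4* and control embryos was measured on 7 two-colour spotted cDNA arrays. The authors scanned with GenePix, left background uncorrected, used print-tip loess inside each array and scaling across them in *limma* (version not given here), and deposited a log2 ratio for every feature. Direction and centring are not stated; deposited column medians lay between -0.01 and 0.02. The 10376 features include 149 control spots, which stayed in the fit. Gene names came from the platform annotation, updated by Entrez ID through a Release 6 gene table (8598 features with 1 gene, 517 with several, 1261 with none; 8454 updated).

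The ratios were multiplied by -1. Means over the arrays were tested with *limma* 3.58.1 (R 4.3.3) by lmFit and eBayes. P-values were adjusted after Benjamini-Hochberg across the whole table (0.05). A second fit added the dye orientation. Lists are given by counts beside all features. The procedure was tested on simulated ratios with independent noise and no dye or array effect. That test does not measure how well small changes are recovered on these arrays. The number of arrays limits the precision.

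Members and lists were chosen with earlier results of these data known. Every member with a single-gene feature is named. Values by array are given for called members and for members among the study's axon patterning genes. They are also given for leucine-rich repeat relatives of called genes, and for the largest 3 means and spreads. Other-list genes are named only where called. *drl* was chosen for values by array after they had been seen, and the other members are given by their range or mean. Alternatives were a dye coefficient, median centring, quantile normalization, robust empirical Bayes, array weights, omitting single arrays or the control spots, averaged clones, and a different adjustment or threshold; fits within each orientation were added after seeing the data.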

Additional observations from a re-analysis of the deposited data

Results flagged for a closer look

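Among the 27 features screened, the *Dscam1* clone HL02328 had 1 array apart from the rest: replicate 2 was at 1.18, while the other 6 arrays lay between 0.06 and 0.48. The gap to the nearest array was 0.625 of the whole range, above the 95% critical value of Dixon's test for 7 samples. Chance alone gives such a value in about 1 in 20 groups. The other *Dscam1* clone was at 0.43 on the same array.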

How the results depend on the processing

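The number of called guidance and adhesion features was 2, and it was 4 with a dye coefficient (*caps*, *CBP*, *drl* and *Dscam1* SD09407). It was 1 on the Cy3 arrays alone, the negative *drl* clone, and neither *caps* nor *CBP* passed there (adjusted p = 0.23 and 0.18 by *limma*). On the Cy5 arrays alone it was 3: *caps*, *CBP* and *Dscam1* SD09407 (adjusted p = 0.040, 0.039 and 0.014 by *limma*). It was 0 at an adjusted p under 0.01 or with the Benjamini-Yekutieli adjustment (8 at an unadjusted p under 0.05, *limma*). Leaving out an array gave 0 to 3: 0 without replicate 5 or 7, 1 without replicate 1 or 3 (*CBP*), and 3 without replicate 2. Those 3 were *CBP*, *drl* and *Dscam1* HL02328, and *caps* was lost. The 1 called feature of the other guidance genes became 4 with a dye coefficient, 2 with array weights, 3 on the Cy3 arrays alone, 2 on the Cy5 arrays alone, and 0 at an adjusted p under 0.01 or with Benjamini-Yekutieli, and leaving out an array gave 0 to 3 (0 without replicate 1, 3, 5 or 7 and 3 without replicate 2). The 1 feature that differed between dye orientations became 6 with array weights, 2 with median centring or quantile normalization, and 0 with Benjamini-Yekutieli or with clones of a gene averaged, and leaving out an array gave 0 to 3 (0 without replicate 4, 2 without replicate 2 and 3 without replicate 7). Over all features the 793 calls became 232 with Benjamini-Yekutieli and 313 at an adjusted p under 0.01. They became 1234 with a dye coefficient, 925 with array weights, 1125 on the Cy3 arrays alone and 711 on the Cy5 arrays alone. Leaving out replicates 1 to 7 in turn gave 690, 810, 446, 536, 441, 614 and 494. The cause of these moves was not tested. Over the 27 named clones and 18 alternatives, 461 of 486 values kept their side of the threshold, 13 lost a call, 12 gained one and 0 called values changed sign. The 13 losses all fell on *caps* and *CBP*, the only called clones, and the gains on *Dscam1*, *drl* and *Fas3*. Most of the 486 values belonged to clones with no call in any fit. The tally therefore does not measure how well the 2 calls held. No paired analysis was possible because each deposited value is already a log ratio within a pair of samples collected together, so that the fit of their mean holds the pairing and no further block could be set.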
